A study of Mus musculus with 10 samples.

Results

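Collagen genes were examined in RNA bound to tagged ribosomes from mouse cerebral cortex. A gene was taken as a collagen gene when its symbol had the form Col, a type number, the letter a and a chain number, and it was kept when at least 3 of the 10 libraries held 10 or more of its counts. Of 32531 genes in the tables, 44 carried such a symbol and 36 were kept. The 10 libraries comprised 3 immunopurified (IP) libraries from each of 3 groups and 1 input library.

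All libraries came from adult S100a10-EGFP/Rpl10a mice of line ES691, in which a ribosomal protein fused to EGFP is made under control of the S100a10 gene, so that ribosomes of S100a10-expressing cells can be captured with antibodies to EGFP (translating ribosome affinity purification, TRAP). The 3 IP groups were saline self-administration, cocaine self-administration and a yoked control, under short-access intravenous self-administration. What the yoked animals received, and how many animals went into a library, was not given in the sources used here. The single input library came from the saline group, and all groups shared the transgene, so neither a wild-type IP nor a cocaine or yoked input was analysed here.

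Collagens are extracellular proteins built from chains that wind in threes into a triple helix. Types I, III and V form the fibrils of connective tissue, type IV forms the sheet-like network of basement membranes around blood vessels and under the pial surface, and type VI forms beaded filaments beside the fibrils. In the brain, fibrillar collagen is best known from the meninges and the walls of larger vessels, whereas a few collagens, among them the transmembrane collagen Col25a1, are known from neurons.

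The libraries held 38653752 to 50898401 gene counts for IP and 69974908 for input, of which the 36 collagen genes took 8586 to 16658 and 5998 counts. Each group was run on its own sequencing lane (4 for saline IP, 5 for cocaine IP, 6 for yoked IP and 7 for input), and the lane therefore cannot be told apart from the group. S100a10 itself lay at 235 ± 56.1, 190.0 ± 19.2 and 202 ± 25.7 CPM (counts scaled to library size in the usual way; SD, n = 3) in saline, cocaine and yoked IP, and at 35.2 CPM in input. The labelled cell type is neurons, and 10 neuronal markers summed to 19509 to 28872 CPM in IP and to 22212 CPM in input, with 0 called higher and 1 called lower in each IP group. The 3 IP libraries numbered 3 stood apart from those numbered 1 and 2, as described for the collagens at the end, and results that bear on them are also given without them. No label says that libraries came from separate animals or cultures, and a p-value here covers only how far these libraries scatter, which may be technical.

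**Figure D1:**
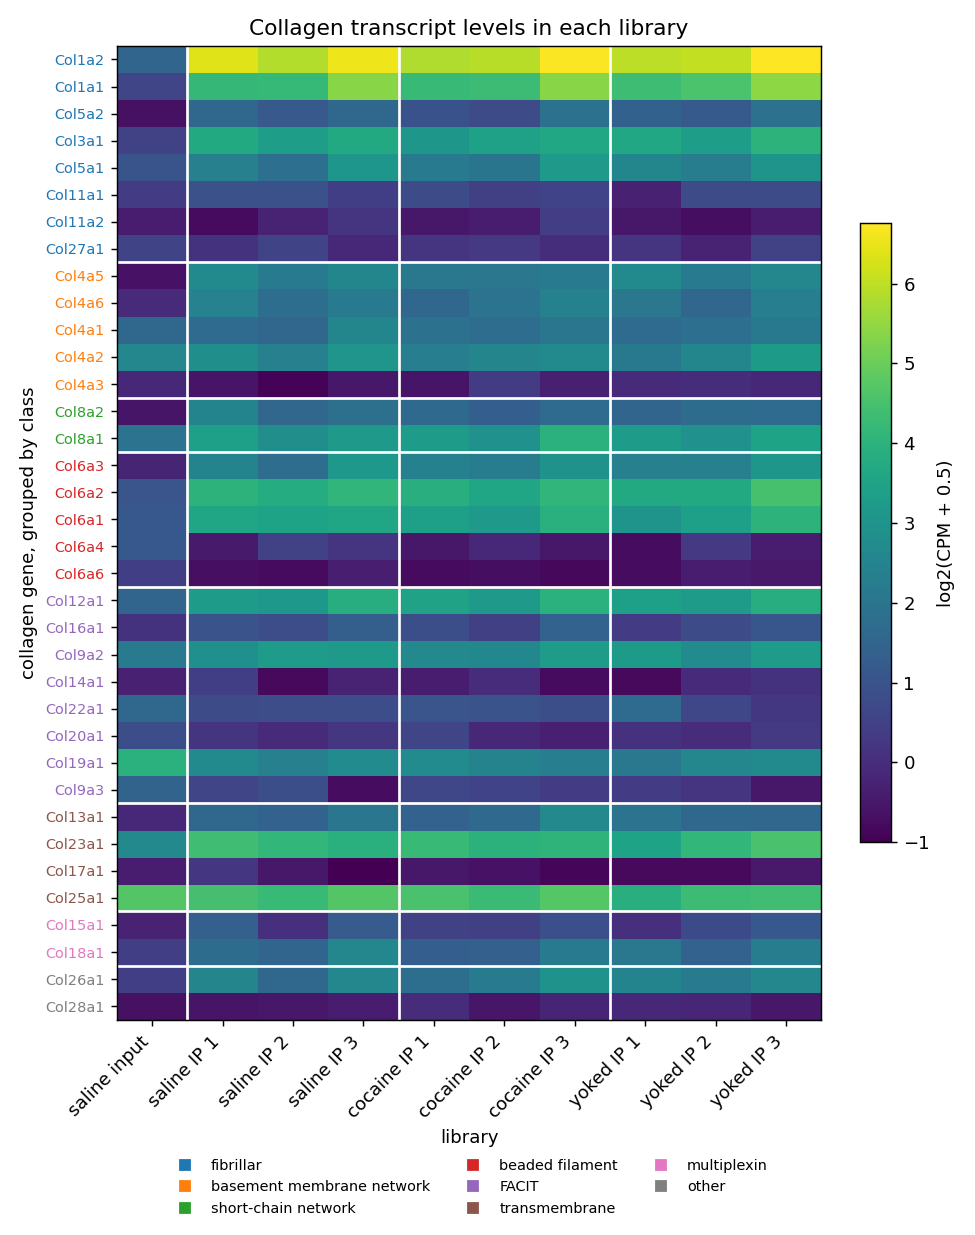
Heat map of the 36 collagen genes (rows, label colours and white lines mark the class) in the 10 libraries (columns), where the colour gives log2(CPM + 0.5). Col1a2 is the highest in IP, at 56.9 to 108 CPM against 2.39 CPM in input, whereas Col25a1 lies at 14.3 to 25.8 CPM in IP and at 25.3 CPM in input.

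Against input, the collagens that were higher in the IP libraries included both type I chains, Col3a1, Col5a2 and the 3 main type VI chains, which build fibrils and beaded filaments, and the basement membrane chains Col4a5 and Col4a6. The neuronal collagen Col25a1 was not called, and Col19a1 was lower. In saline IP, 14 of 36 collagen genes were called higher and 1 was called lower (edgeR's quasi-likelihood test, adjusted p under 0.05), where 7.07% of all 18437 genes tested were called higher and 4.26% lower. The median log2 fold change was 1.37 over the collagen genes and 0.02 over all genes, and 27 collagen genes lay above 0. Cocaine IP had 15 higher and 1 lower, beside 5.7% and 2.26% of all genes, with a median of 1.46. Yoked IP had 14 higher and 1 lower, beside 6.27% and 3.5% of all genes, with a median of 1.35. The same 14 genes were called higher in all 3 groups (5.34% of all genes were) and the same gene, Col19a1, lower in all 3 (1.65%). Because the 3 comparisons share the 1 input library, they are not independent of each other. The 1 input has no replicate of its own, so its spread was taken to equal that of the IP groups.

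With the libraries numbered 3 left out of every group, an analysis chosen after seeing the data, 18, 17 and 18 collagen genes were called in saline, cocaine and yoked IP, and the medians were 1.25, 1.25 and 1.26. Calls over all genes went up as well, to 3442, 2087 and 2423 from 2089, 1468 and 1802. The inclusion rule itself favours genes present in IP, since 9 of the 10 libraries were IP. Among the 8 collagen genes it left out, Col24a1, a fibrillar chain, had 69 counts in input and 1 to 7 in the IP libraries, and Col2a1, the cartilage fibril chain, had 23 and 0 to 4. Both genes had enough counts to be tested against input, but their calls are not given here. Statements about genes called lower therefore cover the kept genes only. In these bulk samples, fewer cells of a type and less RNA per cell cannot be told apart.

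**Figure D2:**
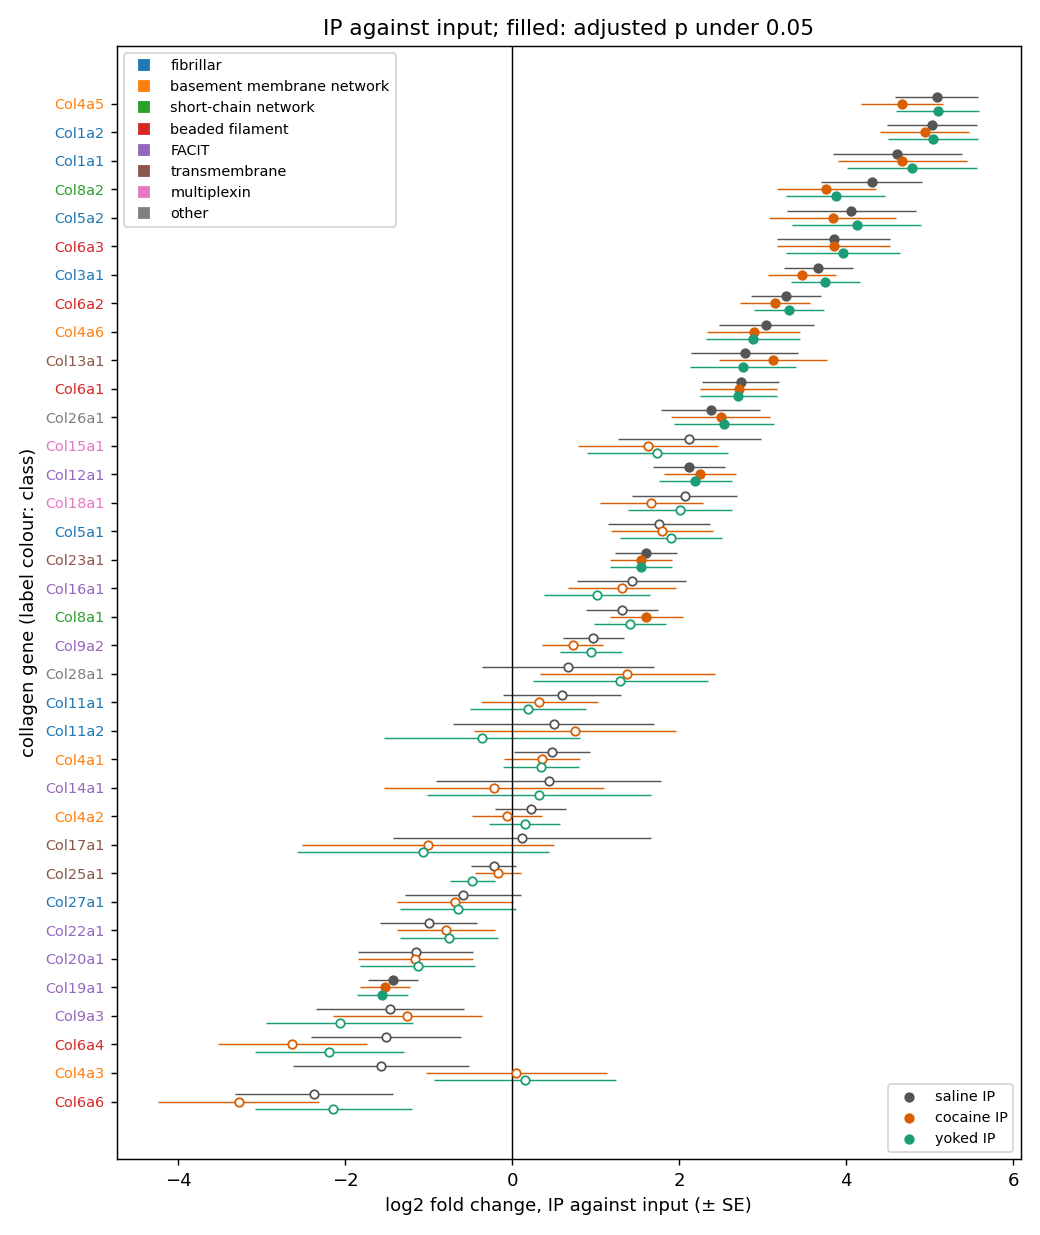
Log2 fold change of each collagen gene between IP and input, with bars of 1 SE, for the saline (grey), cocaine (orange) and yoked (green) groups, and label colours for the class; filled points passed the test. The 14 genes called higher in all groups reach 5.09 for Col4a5 in saline IP, and Col19a1 is the only kept gene called lower.

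Type I collagen, the main fibril of connective tissue, is a trimer of the products of Col1a1 and Col1a2. Col1a2 (chromosome 6, 4504814 to 4541544, plus strand, GRCm38) was at 82.6, 58.0 and 94.4 CPM in saline IP, 56.9, 59.6 and 104 CPM in cocaine IP, 62.7, 65.6 and 108 CPM in yoked IP and 2.39 CPM in input. Every IP library lay far above the input, and the 3 IP groups overlapped. The log2 fold change over input was 5.03 ± 0.54 (SE) in saline IP, or 32.8-fold, with an edgeR adjusted p of 4.97e-05. Col1a1 (chromosome 11, 94936224 to 94953042, plus strand) was at 17.5, 17.8 and 40.6 CPM in saline IP, 18.6, 19.2 and 41.3 CPM in cocaine IP, 19.9, 22.9 and 43.1 CPM in yoked IP and 1.03 CPM in input. The library numbered 3 was the highest in each group. Its log2 fold change in saline IP was 4.61 ± 0.77 (edgeR adjusted p = 0.00155), and 4.09 without the libraries numbered 3.

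Type III collagen, made from Col3a1 alone, shares fibrils with type I. Col3a1 was at 12.7, 9.58 and 12.5 CPM in saline IP, 8.10, 10.4 and 11.7 CPM in cocaine IP, 11.7, 9.69 and 15.5 CPM in yoked IP and 0.911 CPM in input. The groups overlapped, and all 9 IP libraries lay above the input. In saline IP the log2 fold change was 3.66 ± 0.41, or 12.7-fold (edgeR adjusted p = 7e-05).

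The type V chains Col5a1 and Col5a2, which help to start fibrils and set their width, differed in their calls. Col5a2 was at 2.60, 1.76 and 2.49 CPM in saline IP, 1.45, 1.20 and 3.21 CPM in cocaine IP, 2.18, 1.78 and 3.23 CPM in yoked IP and 0.134 CPM in input, where it had 9 counts. It was called higher, with a log2 fold change of 4.06 ± 0.77 in saline IP (edgeR adjusted p = 0.00365). Col5a1 was at 4.72, 3.07 and 7.84 CPM in saline IP, 4.07, 3.57 and 8.40 CPM in cocaine IP, 5.34, 4.33 and 7.61 CPM in yoked IP and 1.54 CPM in input. All IP libraries were above the input, but its log2 fold change of 1.76 ± 0.61 in saline IP missed the threshold (edgeR adjusted p = 0.0842). It passed without the low-count filter (edgeR adjusted p = 0.0474), with DESeq2 (adjusted p = 0.0175) and without the libraries numbered 3 (edgeR adjusted p = 0.0314). Whether Col5a1 and Col5a2 differ in their fold change was not tested. The other fibrillar chains, Col11a1, Col11a2 and Col27a1, had log2 fold changes of 0.60 ± 0.71, 0.50 ± 1.20 and -0.59 ± 0.70 in saline IP and were not called in any group. Of the 8 fibrillar chains kept by the inclusion rule, 4 were called higher in each group. The fibrillar chains Col24a1, Col2a1 and Col5a3 were left out by it.

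Type VI collagen forms beaded filaments from the chains of Col6a1, Col6a2 and Col6a3, and all 3 were called higher in every IP group. Col6a2 was at 15.8, 13.5 and 16.8 CPM in saline IP, 14.0, 11.5 and 16.6 CPM in cocaine IP, 12.7, 12.5 and 22.2 CPM in yoked IP and 1.58 CPM in input. Col6a1 was at 11.6, 10.7 and 11.5 CPM in saline IP, 9.87, 8.58 and 14.8 CPM in cocaine IP, 7.52, 9.90 and 15.7 CPM in yoked IP and 1.69 CPM in input. Col6a3 was at 5.18, 2.94 and 8.20 CPM in saline IP, 4.80, 4.29 and 7.17 CPM in cocaine IP, 4.72, 4.73 and 8.17 CPM in yoked IP and 0.373 CPM in input. No IP library of the 3 genes came down to its input level, and the IP groups overlapped for each. In saline IP the log2 fold changes were 3.28 ± 0.42 for Col6a2, 2.74 ± 0.46 for Col6a1 and 3.85 ± 0.68 for Col6a3, with edgeR adjusted p-values of 0.000197, 0.00168 and 0.00215.

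The alternative type VI chains, Col6a4 and Col6a6, lay on the other side of the input. Col6a4 was at 0.242, 0.949 and 0.618 CPM in saline IP, 0.204, 0.416 and 0.204 CPM in cocaine IP, 0.104, 0.727 and 0.271 CPM in yoked IP and 1.72 CPM in input. Col6a6 was at 0.121, 0.0904 and 0.285 CPM in saline IP, 0.0905, 0.109 and 0.0613 CPM in cocaine IP, 0.104, 0.249 and 0.226 CPM in yoked IP and 0.866 CPM in input. The input was above every IP library for both genes, which had few counts. Neither was called lower, with log2 fold changes of -1.51 ± 0.90 and -2.38 ± 0.95 in saline IP (edgeR adjusted p = 0.332 and 0.132) and -2.63 ± 0.90 and -3.28 ± 0.96 in cocaine IP (edgeR adjusted p = 0.0996 and 0.0553). In cocaine IP, DESeq2 called Col6a6 lower, and a fit of only the IP group and the input called both lower.

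Type IV collagen, the network of basement membranes, divided by chain. The chains Col4a1 and Col4a2 are those of nearly all basement membranes, including those of brain capillaries. Col4a1 was at 2.78, 2.44 and 5.44 CPM in saline IP, 3.28, 2.89 and 3.64 CPM in cocaine IP, 2.75, 3.04 and 3.93 CPM in yoked IP and 2.55 CPM in input. Col4a2 was at 6.79, 4.68 and 7.72 CPM in saline IP, 4.53, 5.23 and 6.03 CPM in cocaine IP, 3.86, 5.44 and 8.92 CPM in yoked IP and 5.48 CPM in input. For both genes the input lay within the range of the IP libraries. Their log2 fold changes in saline IP were 0.47 ± 0.45 and 0.22 ± 0.42 (edgeR adjusted p = 0.58 and 0.811).

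Col4a5 and Col4a6 encode chains of the networks found in smooth muscle and some epithelial basement membranes, and Col4a5 is a gene of Alport syndrome. Col4a5 (chromosome X, 141475385 to 141689234, plus strand) had the largest fold change of all collagen genes in saline IP. It was at 5.86, 4.18 and 5.44 CPM in saline IP, 3.78, 3.72 and 4.13 CPM in cocaine IP, 6.04, 4.10 and 5.51 CPM in yoked IP and 0.149 CPM in input, where it had 10 counts. The log2 fold change in saline IP was 5.09 ± 0.50, or 34.0-fold (edgeR adjusted p = 2.5e-05). Col4a6 was at 4.94, 2.98 and 3.97 CPM in saline IP, 2.49, 3.37 and 4.82 CPM in cocaine IP, 3.71, 2.45 and 4.47 CPM in yoked IP and 0.478 CPM in input. It was also called higher, by a log2 fold change of 3.05 ± 0.56 (edgeR adjusted p = 0.00308). Col4a3, the partner of Col4a5 in kidney, was low, at 0.181, 0.0226 and 0.214 CPM in saline IP, 0.181, 0.810 and 0.306 CPM in cocaine IP, 0.467, 0.517 and 0.406 CPM in yoked IP and 0.418 CPM in input. It was not called against input in any group.

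The short-chain network collagens Col8a1 and Col8a2 are known from vessel walls and the cornea. Col8a2 was at 5.18, 2.46 and 3.14 CPM in saline IP, 2.63, 1.99 and 2.78 CPM in cocaine IP, 2.41, 2.81 and 2.75 CPM in yoked IP and 0.179 CPM in input, from 12 counts. Its log2 fold change in saline IP was 4.31 ± 0.60 (edgeR adjusted p = 0.000375). Col8a1, at 6.69 to 14.9 CPM in IP and 3.39 CPM in input, was called higher in cocaine IP (1.61 ± 0.44, edgeR adjusted p = 0.0389) and lay just outside the threshold in saline IP (1.32 ± 0.43, edgeR adjusted p = 0.0662) and yoked IP (1.41 ± 0.43, edgeR adjusted p = 0.0578). In both of these it was called without the low-count filter, with DESeq2, with the length trend removed and without the libraries numbered 3. The cocaine call for Col8a1 was lost without cocaine replicate 1 (edgeR adjusted p = 0.0549) or without cocaine replicate 3 (edgeR adjusted p = 0.0647), and Col8a1 did not differ beyond the test's threshold between cocaine and saline IP.

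Among the transmembrane collagens, which stay anchored in the cell surface until shed, Col13a1 and Col23a1 were called higher and Col25a1 was not. Col13a1, known from the neuromuscular junction, was at 2.54, 2.21 and 3.63 CPM in saline IP, 2.20, 2.63 and 5.78 CPM in cocaine IP, 3.34, 2.49 and 2.46 CPM in yoked IP and 0.403 CPM in input. Its log2 fold change in saline IP was 2.78 ± 0.64 (edgeR adjusted p = 0.0126). Col23a1 spanned 10.8 to 22.4 CPM in IP with 5.74 CPM in input, and its log2 fold change in saline IP was 1.60 ± 0.37 (edgeR adjusted p = 0.0137). The cocaine call for Col23a1 was lost without cocaine replicate 1 (edgeR adjusted p = 0.0521). Col25a1, whose shed ectodomain is found in amyloid plaques, was at 21.5, 18.1 and 25.3 CPM in saline IP, 22.5, 18.8 and 25.8 CPM in cocaine IP, 14.3, 19.6 and 20.4 CPM in yoked IP and 25.3 CPM in input. The IP libraries ran up to the input level, and the log2 fold change of -0.22 ± 0.27 in saline IP was not called (edgeR adjusted p = 0.676). Col17a1, the hemidesmosome collagen, had 0 to 33 counts in the IP libraries and 18 in input, and was not called.

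The FACIT collagens, which attach to the surface of fibrils, went in both directions. Col12a1, which binds type I fibrils, spanned 8.29 to 15.1 CPM in IP with 2.39 CPM in input, and was called higher in saline IP by a log2 fold change of 2.11 ± 0.43 (edgeR adjusted p = 0.00611). Col19a1 (chromosome 1, 24261890 to 24587472, minus strand), which in the brain is known from interneurons, was the only kept collagen gene called lower. It was at 6.03, 4.72 and 6.13 CPM in saline IP, 6.16, 5.08 and 4.54 CPM in cocaine IP, 3.79, 5.55 and 6.07 CPM in yoked IP and 15.1 CPM in input. Every IP library lay below the input, with log2 fold changes of -1.43 ± 0.30, -1.53 ± 0.30 and -1.56 ± 0.30 in saline, cocaine and yoked IP (edgeR adjusted p = 0.00805, 0.00625 and 0.0049). The interneuron genes Gad1 and Gad2 lay at means of 75.1 and 272 CPM in saline IP and at 194 and 718 CPM in input. As 1 of the 10 neuronal markers was called lower in each group, at most 1 of these genes was called. Which marker was called is not given here. Another marker of that list, Map2, was at 306 to 476 CPM in IP and 1154 CPM in input. In saline IP, 5 of the 10 markers lay below 0. In the libraries numbered 3, Gad2 was at 143 to 167 against 185 to 555 CPM in the other IP libraries. Col19a1 was there at 4.54 to 6.13 against 3.79 to 6.16 CPM. The part of Gad1 and Gad2 cells in the Col19a1 result was not tested. The cartilage chain Col9a2 spanned 5.69 to 9.19 CPM in IP with 4.18 CPM in input (0.97 ± 0.37 in saline IP), and its partner Col9a3 spanned 0.095 to 1.33 CPM with 2.29 CPM in input (-1.46 ± 0.89). Neither was called, nor were Col14a1, Col16a1 and Col20a1, with log2 fold changes of 0.44 ± 1.35, 1.43 ± 0.65 and -1.16 ± 0.69 in saline IP, or Col22a1, at 0.70 to 2.77 CPM in IP and 2.54 CPM in input. The last of the genes called higher was Col26a1, at 5.24, 2.53 and 5.53 CPM in saline IP, 2.99, 4.16 and 7.29 CPM in cocaine IP, 5.13, 4.13 and 5.58 CPM in yoked IP and 0.851 CPM in input. Its log2 fold change in saline IP was 2.38 ± 0.59 (edgeR adjusted p = 0.0194). Col15a1 and Col18a1, the multiplexins of vessel and epithelial basement membranes, had log2 fold changes of 2.12 ± 0.86 and 2.06 ± 0.63 in saline IP and were not called (edgeR adjusted p = 0.139 and 0.051). In saline IP, Col18a1 was called without the low-count filter, with DESeq2, with the length trend removed, without saline replicate 2 and without the libraries numbered 3. Col28a1 had a log2 fold change of 0.67 ± 1.03 and was not called.

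Marker sums for meningeal fibroblasts, mural cells and endothelium were higher in IP than in input, as the collagen sum was. The neuronal sum in input, mostly Snap25, lay within the IP range. The 14 meningeal fibroblast markers, a list without collagens, summed to 2213 to 3670 CPM in IP and 154 CPM in input, and 13 of 14 were called higher in each group, with medians of 4.66, 4.51 and 4.59 on the log2 scale. The 12 mural cell markers summed to 231 to 422 CPM in IP and 43.4 CPM in input, with 6 called higher in each group, 5 below 0 in each and 1 called lower in yoked IP. Vtn and Myl9 made up most of that sum, at 78.6 to 152 and 69.8 to 129 CPM in IP. Pericyte markers in the list went both ways. Rgs5 and Cspg4 were below input in all 9 IP libraries, at 1.60 to 5.36 against 8.27 CPM and 0.443 to 3.08 against 3.35 CPM. Pdgfrb and Anpep were above input in all 9, at 13.6 to 29.3 against 4.48 CPM and 27.7 to 54.6 against 1.64 CPM. The 12 endothelial markers summed to 69.6 to 109 CPM and 14.8 CPM, with 4 called higher in each group and 1, 2 and 3 below 0 in saline, cocaine and yoked IP. Itm2a, Cdh5 and Abcb1a made up most of that sum, at 35.1 to 45.1, 11.3 to 23.1 and 8.23 to 15.2 CPM in IP. Another 5 endothelial markers had IP medians under 1 CPM. Of these, Emcn was below input in all 9 IP libraries, at 0.156 to 0.665 against 1.24 CPM. The 8 choroid plexus markers summed to 44.8 to 82.1 CPM and 12.1 CPM, with 2 of 7 tested called higher in each group and Folr1, Otx2 and Slc4a5 at 0 in at least 1 IP library. Kcnj13 and Kl made up most of that sum, at 24.2 to 48.2 and 14.8 to 29.7 CPM in IP. Ttr was at 22.9 CPM in yoked replicate 1 and at 0.143 to 1.24 CPM in the other IP libraries, against 2.67 CPM in input. Sums were below input for 8 astrocyte markers (823 to 1332 against 1821 CPM), 8 oligodendrocyte markers (194 to 751 against 1409 CPM) and 8 microglial markers (23.9 to 37.1 against 47.2 CPM). Gjb6, an astrocyte marker, was at 128 to 226 CPM in IP and 15.5 CPM in input. Within these lists 2 astrocyte markers and 1 microglial marker were called higher in each group, and 3, 2 and 3 astrocyte, 4, 1 and 4 oligodendrocyte and 2, 1 and 1 microglial markers were called lower in saline, cocaine and yoked IP. Most of the astrocyte sum was Slc1a2, at 441 to 914 CPM in IP and 1566 CPM in input. The part of these cell types in the collagen result was not tested.

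**Figure D3:**
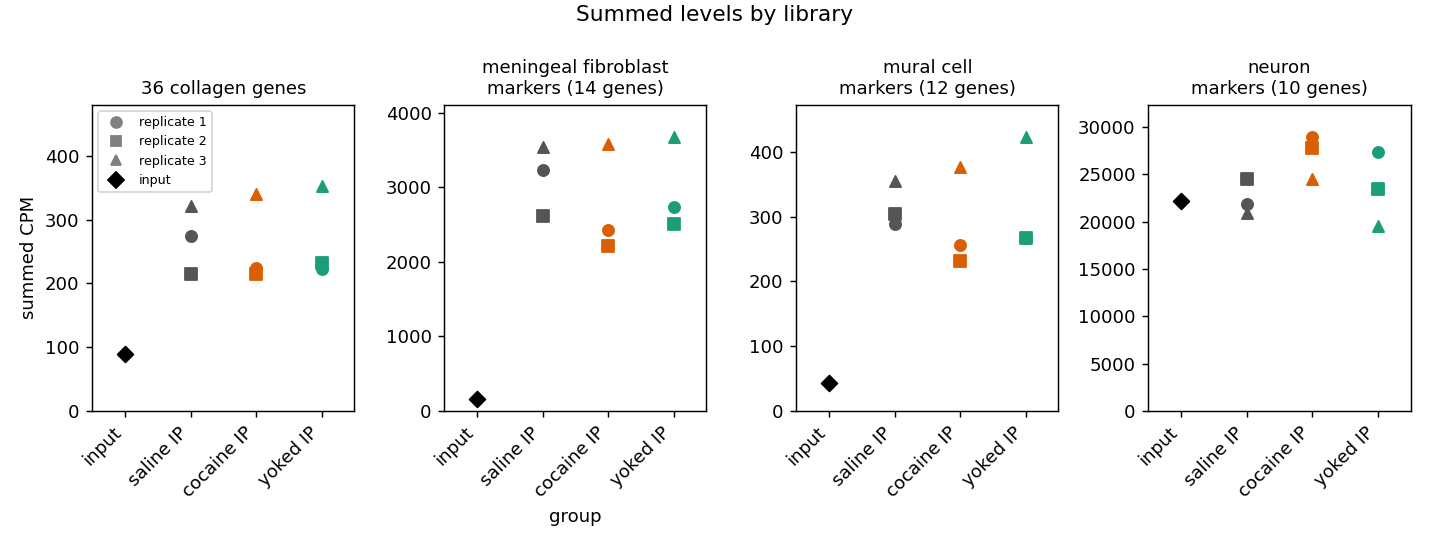
Summed CPM in each library (y axis, from 0) by group (x axis) for the collagen genes and for meningeal fibroblast, mural and neuronal markers, 1 panel each, with a marker shape for each replicate number. The collagen sum is 214 to 353 CPM in the IP libraries and 89.6 CPM in input, and the meningeal fibroblast sum is 2213 to 3670 CPM against 154 CPM.

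Divided by transcript length, the order of the collagens differed between IP and input. Levels here are CPM per kb of the longest annotated transcript. The order rests on this choice, because all annotated exons of a gene together can be much longer. They cover 12947 bp against 6701 bp for Col25a1, 12426 against 5348 bp for Col1a2 and 6887 against 5441 bp for Col19a1. Ranks by that other length are not given here. In input the highest were Col25a1 at 3.77, Col19a1 at 2.78, Col9a2 at 1.43 and Col23a1 at 1.01 CPM per kb, whereas Col1a2 ranked 8th at 0.447 and Col1a1 ranked 18th at 0.174. In saline IP the highest were Col1a2 at a mean of 14.7, Col1a1 at 4.27, Col25a1 at 3.23, Col6a2 at 3.13 and Col23a1 at 3.07 CPM per kb. The neighbours from Col1a1 down to Col23a1 in that order lay within the spread of the libraries, while Col1a2 stood above them in every IP library. Col19a1 ranked 11th at 1.03 CPM per kb. Col4a5, 35th of 36 in input at 0.0229 CPM per kb, ranked 16th in saline IP at 0.790. Col1a2 was also the highest in cocaine and yoked IP, at 13.7 and 14.7 CPM per kb.

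**Figure D4:**
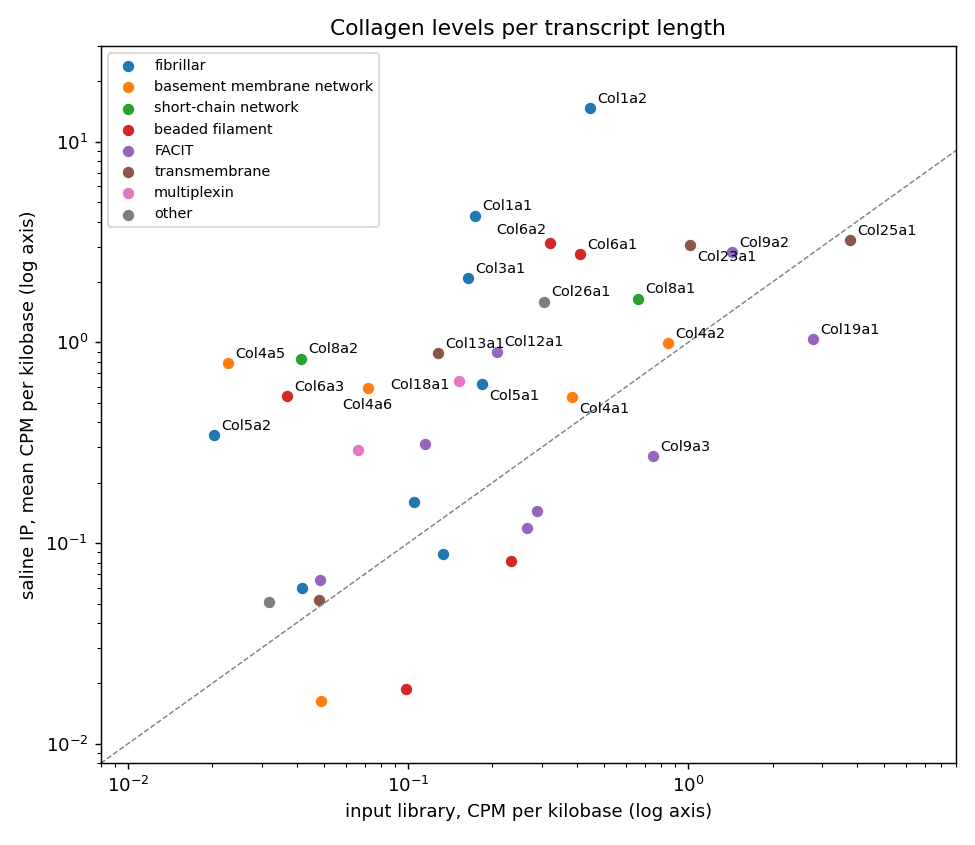
Level per kb of transcript for each collagen gene in input (x axis) and saline IP (y axis), both log axes in CPM per kb, with colours for the class and a dashed line of equal levels. Col1a2 lies at 0.447 in input and 14.7 in saline IP, and Col19a1 at 2.78 and 1.03.

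The collagen sum over all 36 genes was 274, 214 and 321 CPM in saline IP, 224, 214 and 340 CPM in cocaine IP, 223, 231 and 353 CPM in yoked IP and 89.6 CPM in input. The fibrillar class had the largest sum of the classes in each IP library, at 91.1 to 179 CPM against 8.08 CPM in input. The FACIT sum did not separate IP from input, at 23.6 to 33.5 CPM against 28.8 CPM, and the transmembrane sum, at 28.5 to 47.8 CPM, took in the input value of 31.7 CPM. Basement membrane chains summed to 14.3 to 23.2 CPM against 9.08 CPM, and type VI chains to 24.9 to 46.6 CPM against 6.23 CPM.

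Chains that share a trimer kept different proportions. Per kb, Col1a1 was 0.191 to 0.388 of Col1a2 in the IP libraries and 0.389 in input. The length is again that of the longest transcript, and the size of each ratio between chains rests on it. Comparing the same ratio between libraries does not depend on the length. In the libraries numbered 3 the ratio was 0.359 to 0.388, above the 0.191 to 0.314 of the others. Col4a1 was 0.399 to 0.707 of Col4a2 in IP and 0.454 in input, so the input lay inside the IP range. Col4a5 was 0.871 to 1.70 times Col4a6 in IP and 0.318 in input, and Col8a2 was 0.220 to 0.616 of Col8a1 in IP and 0.0623 in input. These input ratios rest on 10 and 12 counts of Col4a5 and Col8a2. Col6a1 was 0.709 to 1.07 times Col6a2 in IP and 1.28 in input.

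Of 10 collagen pairs that neighbour each other within 500 kb in GENCODE M21, 6 were of kept genes. Fold changes over input had the same sign in 6 of 6 pairs in saline and yoked IP and in 5 of 6 in cocaine IP, where Col4a1 was at 0.36 and Col4a2 at -0.06. As 27 of 36 collagen genes lay above 0 in saline IP and Col6a1 is in more than 1 pair, these counts are a description. Col3a1 and Col5a2 on chromosome 1 end 24614 bp apart and were both called higher, as were Col6a2 and Col6a1 on chromosome 10, 85161 bp apart. Col4a6 and Col4a5 on chromosome X start 1308 bp apart on opposite strands and were both called higher. Col4a1 and Col4a2 on chromosome 8 start on opposite strands with an overlap of 22 bp, and neither was called. Col9a3 and Col20a1 were both below 0 and not called. In the sixth pair, Col6a1 was called higher and Col18a1 was not.

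RefSeq promoter windows of GRCm38.p6, taken as the 250 bases before the start, were found for 28 of the 36 genes, in 30 windows. The GC box letters GGGCGG, on either strand, were in 19 of 30 collagen windows (63.3%) and in 32.7% of 32851 windows of all genes. They were in 7 of 11 windows of collagens called higher and in 12 of 19 of the others. CCAAT was in 33.3% of the collagen windows and 33.8% of all, and TATAAA in 13.3% and 12.4%, both strands searched. Such matches describe the letters and not bound sites. The GC content of the collagen windows ran from 35.2% to 76.4%, and its part in the GC box share was not tested. The windows of Col4a1, Col4a2, Col20a1 and Col6a4 lie over annotated exons in all 250 bases, and some others do in part. Stretches of 150 bases directly before the start that overlap no annotated exon are printed for 3 genes called higher (Col3a1, a fibrillar chain, Col4a6, a basement membrane chain, and Col23a1, a transmembrane chain) and for Col25a1, which was not called, to show how their letters differ. They run 5′ to 3′ on the gene's strand, with matches to the 3 motifs in capitals. The stretches are chr1:45311388-45311537 (plus), chrX:141474077-141474226 (minus), chr11:51289770-51289919 (plus) and chr3:130180695-130180844 (plus), in this order. The Col25a1 stretch precedes the RefSeq start and lies inside the gene as GENCODE M21 places it, from 130131501.
Col3a1: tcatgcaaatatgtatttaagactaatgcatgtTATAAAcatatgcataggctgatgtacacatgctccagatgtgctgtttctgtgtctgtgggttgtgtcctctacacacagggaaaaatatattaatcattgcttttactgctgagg
Col4a6: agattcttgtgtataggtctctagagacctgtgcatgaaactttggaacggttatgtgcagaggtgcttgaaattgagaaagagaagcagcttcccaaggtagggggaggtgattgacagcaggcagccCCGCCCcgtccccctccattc
Col23a1: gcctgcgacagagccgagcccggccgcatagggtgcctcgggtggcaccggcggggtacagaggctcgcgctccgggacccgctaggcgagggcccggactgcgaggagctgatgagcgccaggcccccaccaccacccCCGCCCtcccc
Col25a1: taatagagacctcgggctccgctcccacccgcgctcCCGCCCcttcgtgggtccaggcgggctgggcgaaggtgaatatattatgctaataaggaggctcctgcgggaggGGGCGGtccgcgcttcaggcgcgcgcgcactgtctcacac
The Col3a1 stretch holds TATAAA and no GC box, the Col4a6 and Col23a1 stretches hold 1 GC box each, and the Col25a1 stretch holds a GC box on each strand.

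Genes that process collagen were also examined, as a list of 44. Against input, 17 of the 41 tested were called higher in saline IP and 1 lower, with 16 and 1 in cocaine IP and 17 and 1 in yoked IP, and medians of 0.74, 1.02 and 0.96. Those shares stand beside the same backgrounds of all genes as the collagens. Of 7 genes for folding and export, 4 were higher in saline IP, led by Serpinh1, the collagen-specific chaperone HSP47, at 11.3, 9.22 and 12.1 CPM in saline IP and 1.21 CPM in input. Its log2 fold change was 3.17 ± 0.41, and those of Fkbp10, Fkbp14 and Sec24d were 2.76 ± 0.47, 1.31 ± 0.36 and 0.95 ± 0.27. Of 14 genes for hydroxylation and glycosylation of the chains, P3h3 (3.42 ± 0.59) and Crtap (2.91 ± 0.53) were higher, whereas the prolyl hydroxylase subunits P4ha1 (0.08 ± 0.37) and P4hb (0.58 ± 0.24) were not called.

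Among 7 genes tested for propeptide removal, Pcolce, the enhancer of procollagen C-proteinase, was at 51.1, 48.9 and 60.1 CPM in saline IP and 2.33 CPM in input, a log2 fold change of 4.52 ± 0.38. Adamts2, a procollagen N-proteinase, was higher (1.74 ± 0.42), and its relative Adamts3 was lower (-1.99 ± 0.30), at 3.22, 4.16 and 5.51 CPM in saline IP and 17.0 CPM in input. Of 5 crosslinking oxidases, Lox (3.97 ± 1.06), Loxl1 (3.61 ± 0.63) and Loxl3 (2.90 ± 0.52) were higher. Of 8 receptor and uptake genes tested, 6 were higher, among them the integrin subunit Itga1 (3.57 ± 0.57), the collagen uptake receptor Mrc2 (3.39 ± 0.51), the fibrillar collagen receptor Ddr2 (3.31 ± 0.50) and the integrin subunit Itga10 (3.21 ± 0.75). Ddr2 was at 37.7, 26.2 and 41.5 CPM in saline IP and 3.54 CPM in input, and the related receptor Ddr1 was not called (0.21 ± 0.30).

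Between the IP groups, no collagen gene passed the threshold. For each of cocaine against saline, yoked against saline and cocaine against yoked, edgeR called 0 of 35 collagen genes and 0% of 16642 genes. DESeq2 also called 0 collagen genes. Col17a1 was not tested there, as it did not pass the low-count filter among IP libraries. At an unadjusted p under 0.05 there were 0, 1 and 0 collagen genes, beside 3.18%, 2.39% and 0.955% of all genes. The median log2 fold changes of the collagen genes were -0.11, -0.03 and -0.05, with -0.02, -0.01 and -0.01 over all genes. A joint test of any difference between the 3 groups called 0 collagen genes and left 0 with an unadjusted p under 0.05 (1.61% of all genes). The comparisons share libraries in pairs, so their values are not independent.

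For cocaine against saline, edgeR's lowest unadjusted p-values were 0.059 for Col4a3 (1.61 ± 0.78), 0.0903 for Col4a5 (-0.42 ± 0.23) and 0.0908 for Col8a2 (-0.56 ± 0.30), and the adjusted p was 0.99 for each. Col4a5 was lower in all 3 cocaine libraries than in any saline library, at 3.72 to 4.13 against 4.18 to 5.86 CPM, and Col22a1 was higher in all 3, at 1.31 to 1.58 against 1.23 to 1.29 CPM. Such separation, in 1 collagen gene each way, occurred in 4.32% of all genes downwards and 4.64% upwards. For yoked against saline, Col4a3 (1.71 ± 0.78) had an unadjusted p of 0.0467 and an adjusted p of 1 in edgeR's fit, and its groups did not overlap, as in 3.03% of all genes upwards (0 collagen genes and 3.05% of all genes downwards). It rests on 1 to 9 counts a library in saline IP and 18 to 27 in yoked IP. Col8a2 (-0.44 ± 0.30) and Col25a1 (-0.26 ± 0.19) came next, with unadjusted p-values of 0.171 and 0.2. For cocaine against yoked, edgeR's lowest unadjusted p-values were 0.0863 for Col4a5 (-0.43 ± 0.23), 0.145 for Col25a1 (0.30 ± 0.19) and 0.156 for Col6a6 (-1.15 ± 0.76), and the adjusted p was 1 for each. Col9a3 was higher in every cocaine than in every yoked library, as were 2.49% of all genes, and 0 collagen genes were lower in this way, beside 2.25%.

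The type I chains differed between the IP groups in mean by less than 1 SD. Col1a1 averaged 25.3 ± 13.3, 26.4 ± 12.9 and 28.6 ± 12.6 CPM (SD, n = 3) in saline, cocaine and yoked IP, and Col1a2 averaged 78.4 ± 18.6, 73.4 ± 26.3 and 78.6 ± 25.1 CPM. The sum over all collagens averaged 269.8 ± 53.7, 259 ± 70.3 and 269 ± 72.9 CPM. Of the fibroblast markers, 0 of 14 were called between IP groups, with medians of -0.24, -0.13 and -0.09 for the 3 comparisons in the same order. The genes that process collagen had 0 of 40 called in each.

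**Figure D5:**
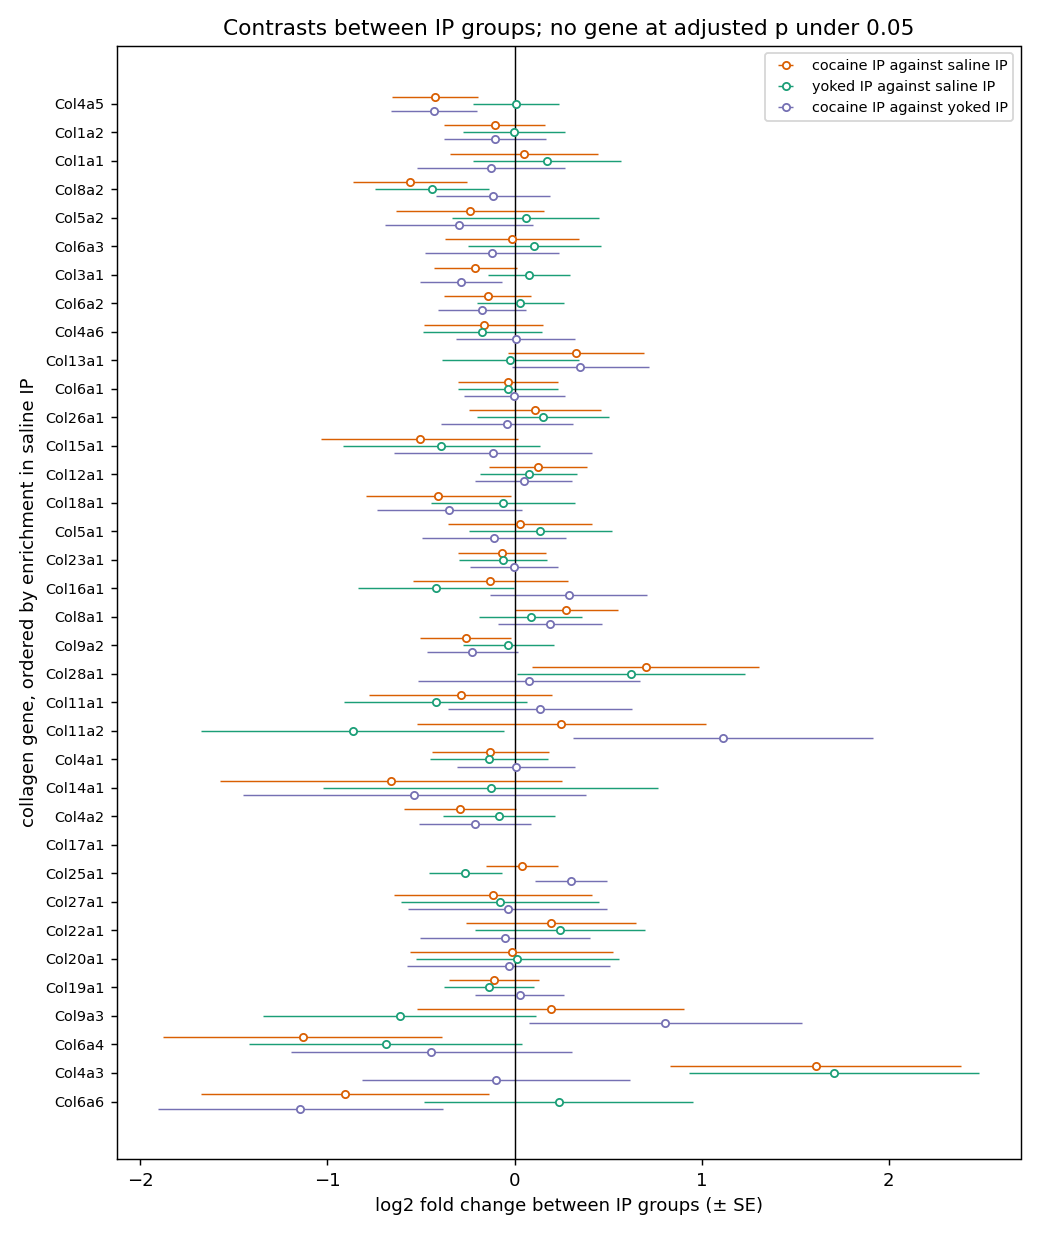
Log2 fold change of each collagen gene between IP groups, with bars of 1 SE, for cocaine against saline, yoked against saline and cocaine against yoked. No gene was called, and Col4a3 has the largest values, at 1.61 and 1.71 against saline.

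Spread within groups followed the library number for the collagen sum and for some of the collagen genes. In 13 of 35 genes the library numbered 3 was above those numbered 1 and 2 in each of the 3 groups, beside 16.1% of all genes, and in 1, Col9a3, it was below in each, beside 13.4%. The mean difference over the 3 groups was 1.10 on the log2 CPM scale for Col1a1, 0.87 for Col5a1, 0.77 for Col6a3, 0.75 for Col18a1 and 0.67 for Col1a2, and -0.84 for Col9a3. The median was 0.39 over the collagens and 0.00 over all genes. Collagen sums were 321 to 353 CPM in the libraries numbered 3 and 214 to 274 CPM in the others. Other sums moved with them: meningeal fibroblast markers were at 3540 to 3670 against 2213 to 3235 CPM, mural markers at 355 to 422 against 231 to 304 CPM and endothelial markers at 108 to 109 against 69.6 to 89.0 CPM. The neuronal sum, mostly Snap25, overlapped at 19509 to 24492 against 21806 to 28872 CPM, but single neuronal markers did not all overlap. Slc17a7 was higher in the libraries numbered 3, at 540 to 636 against 231 to 330 CPM, as was Syt1, at 1332 to 1413 against 924 to 1198 CPM. Gad1 was lower, at 38.2 to 54.3 against 59.2 to 145 CPM, as was Gad2, at 143 to 167 against 185 to 555 CPM. The other neuronal markers overlapped. Across 35 collagen genes, which share these libraries, the difference had a Pearson r of 0.25 and a Spearman rho of 0.31 with GC content, beside 0.19 and 0.20 across 15091 genes with a value. The part of cell make-up, base composition or library preparation in the collagen difference was not tested.

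At the edge of the inclusion rule, Col17a1 was kept with 3 libraries at 10 or more counts and Col6a6 with 4, and Col4a4 and Col9a1 were left out with 2 each. Counts of Col4a4 were 11, 11 and 6 in saline IP, 2, 1 and 5 in cocaine IP, 6, 6 and 7 in yoked IP and 9 in input. Exons of 11 of the 36 genes overlap exons of another gene, 9 of them on the other strand, over at most 563 bp (Col4a3). The strand setting of the counting was not given in the sources used here, so reads of such stretches cannot be assigned to 1 gene, and the low counts of Col4a3 are uncertain on that account.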

How the data were processed

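RNA was sequenced from 9 IP libraries and 1 input library. The authors deposited raw counts per gene, made with STAR 2.0.0e and HTSeq on mm10 per the submitters' processing notes; the HTSeq version, annotation and strand setting were not given in the sources used here. The 6 entries naming no gene were left out. Tests were quasi-likelihood tests of edgeR 4.0.16 under R 4.3.3, after filterByExpr at a minimum count of 10 and TMM scaling, with Benjamini-Hochberg adjustment over all genes: 18437 genes over 10 libraries for IP against input, and 16642 over the 9 IP libraries between IP groups. CPM used the TMM-scaled library size. DESeq2 1.42.0, another scaling, no filter, smaller fits and left-out libraries were alternatives. The tests were also tried on simulated data, whose settings and outcome are not given here. Libraries of a group differed by more than sampling noise (chi-square per degree of freedom of 32.8 to 114), so none was the same library counted again. Separate preparations from the same RNA would also differ in this way, so they cannot be told from separate animals.

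The members and gene lists were chosen with earlier results of these data known. Values per library are given for the called genes with the 12 largest fold changes over input in saline IP and those called lower (up to 5). They are also given for all kept chains of types I, III, IV, V and VI, and the 3 genes with the lowest p in each IP comparison. At most 4 processing genes are named per role and direction among those called. Gene positions came from GENCODE M21.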

Additional observations from a re-analysis of the deposited data

How the results depend on the processing

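The calls of collagen genes stayed within 1.5 times the count reported, over all alternatives run: 15 to 18 in saline IP, 14 to 19 in cocaine IP and 15 to 18 in yoked IP against input, and 0 in each comparison between IP groups. The medians over input ranged, when 1 library was left out, from 1.24 to 1.49 in saline IP, 1.26 to 1.63 in cocaine IP and 1.27 to 1.36 in yoked IP. With each library's length trend removed, chosen after seeing the data, the saline median was 1.62 over 34 genes. Between yoked and saline IP the median ranged from -0.26 (without yoked replicate 3) to 0.091 (without saline replicate 3), and between cocaine and yoked IP from -0.20 to 0.17, where it reversed without yoked replicate 3; the cause was not tested. The count over all genes in saline IP was 2089, and 3442 without the libraries numbered 3. With the replicate number as a block, between-group medians were -0.10, -0.03 and -0.11, with 0 collagen genes called. Correlations across genes of deviations from group means were -0.08 to 0.47 in 9 pairs with the same number and -0.50 to 0.42 in 18 with different numbers, and the labels give the number no meaning, so the numbers were not taken to pair libraries. The 3 pairs numbered 3 had 0.43 to 0.47 and the 3 numbered 2 had 0.10 to 0.36, whereas those numbered 1 had -0.08 to 0.20. No paired analysis was possible against input because the input carries no replicate number. With 1 input library and low counts for several genes in it, fold changes over input are imprecise.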

Other observations

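Collagen genes left out by the inclusion rule showed values that belong to no comparison. Col9a1, a cartilage FACIT chain, had 13, 3 and 2 counts in saline IP, 1, 7 and 5 in cocaine IP, 13, 3 and 1 in yoked IP and 5 in input. Col7a1, the anchoring fibril collagen of skin, had 32 counts in yoked replicate 3 and 1 to 5 in each other library.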
